A study of Mus musculus with 4 samples.

Results

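The genes described here are 50 genes of DNA replication and mitosis, 27 that act in replication and the entry into S phase and 23 that act from late S phase through mitosis. They were chosen by name for their function, with earlier results of these data known. Each gene was represented by a probe set whose annotation gave that symbol alone, and by the one with the highest mean over the 4 arrays where there were several. This held for 49 of the 50 genes, 27 for replication and 22 for mitosis, among 19938 genes with such a probe set. Ccnb1 had none and entered only the search of promoter sequences. All 49 passed the filter on low values, which kept 13956 genes.

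Small-intestinal total RNA of C57BL/6 mice was hybridised to single-colour Affymetrix arrays. There were 2 arrays from mice with a CFLARs transgene (CFLARs Tg), titled XCFX and XCFY, and 2 from wild-type mice, titled XX and XY. CFLARs is the short form of cFLIP, which regulates caspase-8, and the series title names necroptosis of intestinal epithelial cells and ileitis in preterm mice. The labels give no age, no promoter, insertion site or copy number for the transgene, and no number of animals behind an array, so the p-values measure only the spread between these arrays, which may be technical. Of 3 Cflar probe sets, the one with the highest mean read 9.49 and 9.30 in CFLARs Tg, against 9.34 and 9.28 in wild-type (difference 0.08, SE 0.08, limma adjusted p = 0.498). Values of the others are not given here. Whether the transgene's transcript holds the target of this probe set is not given, so it checks no label. In bulk RNA a larger share of dividing cells and more RNA per dividing cell cannot be told apart.

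DNA replication and mitosis use sets of proteins that a cell makes only when it divides. At replication origins the MCM helicase ring is loaded in G1 and activated in S phase, after which primase, polymerases, the PCNA clamp, a flap nuclease and a ligase copy the strands from deoxynucleotides made by ribonucleotide reductase and thymidylate synthase. In mitosis cyclin B with CDK1, the Aurora and Polo-like kinases, kinesins and kinetochore proteins build the spindle and separate the chromosomes. In the adult small intestine these genes are active in the transit-amplifying and stem cells of the crypts and are shut off as cells move onto the villus.

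These gene groups are known for different promoter elements. Replication genes are known targets of E2F factors, and mitosis genes are known to carry a cell cycle homology region (CHR), bound by the MuvB complex, together with CCAAT boxes, bound by NF-Y. Promoter windows of 300 bases, 250 before the annotated start and 50 from it onward, were given by RefSeq (GRCm38.p6) for 41 of the 50 genes, in 48 windows. They were searched on both strands for 4 forms of the E2F motif (TTTCCCGC, TTTGGCGC, TTTCGCGC and TTTGCCGC), for the CHR motif TTTGAA and for CCAAT. An E2F form was found in 37.0% of 27 windows of replication genes and in 4.76% of 21 windows of mitosis genes, against 3.63% of the 14045 windows of all fitted genes. The CHR motif was found in 7.41% of the replication windows and 76.2% of the mitosis windows, against 12.1% of all fitted genes. CCAAT was found in 59.3% of the replication windows and 90.5% of the mitosis windows, against 36.8% of all fitted genes. In the whole table of 32851 windows the shares were 2.26% for E2F, 17.9% for CHR and 37.4% for CCAAT. A match describes the sequence and is not a site shown to be bound. Split by call, the 12 windows of genes that rose held an E2F form in 4, CHR in 2 and CCAAT in 7, and the 35 windows of genes that did not pass held them in 7, 16 and 27. The window of Ccnb1, which has no call, is in neither set. Most windows of genes that rose were replication windows, so this split largely repeats the one by phase, and a link of motif to call was not tested.

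**Figure D1:**
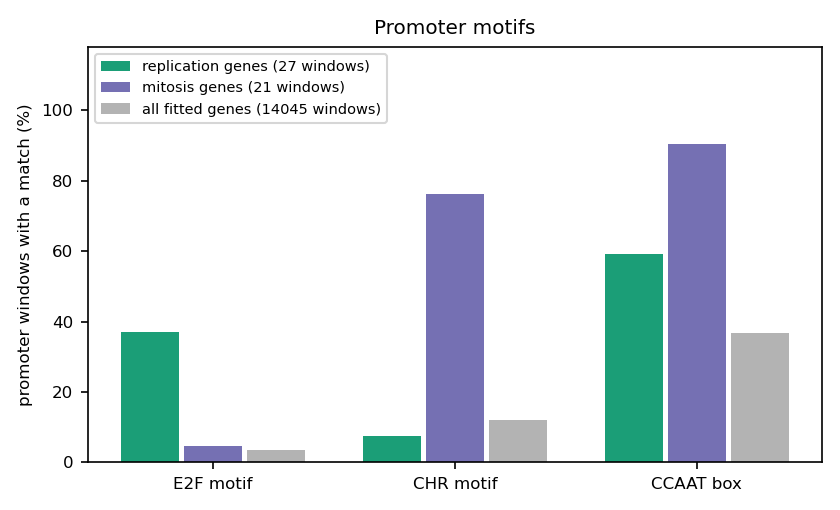
Bars give the share (%) of promoter windows with at least 1 match on either strand to an E2F form, the CHR motif or CCAAT, for replication genes, mitosis genes and all fitted genes. E2F matches stand at 37.0% in replication windows and CHR matches at 76.2% in mitosis windows.

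The windows of the 4 replication genes and the 4 mitosis genes with the lowest adjusted p that had one are printed here, because these genes came first in the test of their group; not all hold the element of their group. They are printed 5′ to 3′ along the gene's strand, in GRCm38.p6, with each match in capitals. Fen1, Uhrf1 and Prc1 had 2 windows each, of which the first listed is shown.
Fen1, chr19:10204344-10204643, minus strand: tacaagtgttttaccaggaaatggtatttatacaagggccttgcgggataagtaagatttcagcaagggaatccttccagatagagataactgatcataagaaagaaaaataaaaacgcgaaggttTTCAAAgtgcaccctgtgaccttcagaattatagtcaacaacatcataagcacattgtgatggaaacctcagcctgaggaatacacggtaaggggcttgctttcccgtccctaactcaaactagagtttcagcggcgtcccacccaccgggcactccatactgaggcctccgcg
Mcm3, chr1:20820263-20820562, minus strand: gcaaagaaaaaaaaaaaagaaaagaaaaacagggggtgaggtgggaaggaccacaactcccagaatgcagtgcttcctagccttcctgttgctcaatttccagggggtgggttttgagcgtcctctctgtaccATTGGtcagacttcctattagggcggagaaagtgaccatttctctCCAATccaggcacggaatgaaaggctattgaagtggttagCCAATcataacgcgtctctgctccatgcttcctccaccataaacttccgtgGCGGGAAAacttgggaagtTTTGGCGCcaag
Mcm5, chr8:75109259-75109558, plus strand: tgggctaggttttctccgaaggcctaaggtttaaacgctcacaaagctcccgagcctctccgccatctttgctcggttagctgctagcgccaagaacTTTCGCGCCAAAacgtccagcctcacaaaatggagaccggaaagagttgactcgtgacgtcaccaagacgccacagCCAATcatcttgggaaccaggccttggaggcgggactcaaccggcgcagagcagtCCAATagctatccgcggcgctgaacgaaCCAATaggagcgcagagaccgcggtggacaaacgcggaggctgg
Uhrf1, chr17:56303087-56303386, plus strand: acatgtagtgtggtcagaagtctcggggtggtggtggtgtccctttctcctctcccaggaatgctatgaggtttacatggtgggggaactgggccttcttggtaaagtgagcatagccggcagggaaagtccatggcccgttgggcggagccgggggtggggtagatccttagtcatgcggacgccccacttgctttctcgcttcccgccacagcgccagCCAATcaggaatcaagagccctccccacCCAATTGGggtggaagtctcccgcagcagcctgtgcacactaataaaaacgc
Top2a, chr11:99024140-99024439, minus strand: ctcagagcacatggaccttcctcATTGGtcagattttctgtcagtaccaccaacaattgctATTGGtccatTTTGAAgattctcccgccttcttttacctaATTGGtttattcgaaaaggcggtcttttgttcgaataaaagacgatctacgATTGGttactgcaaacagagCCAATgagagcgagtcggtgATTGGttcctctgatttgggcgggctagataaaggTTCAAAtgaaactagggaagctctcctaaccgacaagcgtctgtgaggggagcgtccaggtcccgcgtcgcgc
Birc5, chr11:117848987-117849286, plus strand: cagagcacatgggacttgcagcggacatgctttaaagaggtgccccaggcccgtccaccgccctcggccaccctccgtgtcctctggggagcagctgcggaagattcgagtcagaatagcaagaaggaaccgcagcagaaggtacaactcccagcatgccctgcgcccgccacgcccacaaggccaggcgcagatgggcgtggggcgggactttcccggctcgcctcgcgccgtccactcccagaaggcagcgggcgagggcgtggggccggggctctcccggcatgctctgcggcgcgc
Prc1, chr7:80294201-80294500, plus strand: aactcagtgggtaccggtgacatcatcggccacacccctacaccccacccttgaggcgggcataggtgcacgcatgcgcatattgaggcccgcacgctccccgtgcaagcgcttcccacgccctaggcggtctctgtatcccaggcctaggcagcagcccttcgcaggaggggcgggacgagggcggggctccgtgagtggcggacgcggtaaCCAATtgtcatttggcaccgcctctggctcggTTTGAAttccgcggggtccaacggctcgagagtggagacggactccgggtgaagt
Kif23, chr9:61946750-61947049, minus strand: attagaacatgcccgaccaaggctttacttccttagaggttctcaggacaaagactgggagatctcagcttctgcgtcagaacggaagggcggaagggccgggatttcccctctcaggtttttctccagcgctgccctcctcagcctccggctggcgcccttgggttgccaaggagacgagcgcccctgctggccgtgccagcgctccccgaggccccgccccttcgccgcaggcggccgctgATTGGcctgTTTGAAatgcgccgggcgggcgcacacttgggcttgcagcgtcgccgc
In Mcm3, GCGGGAAA and TTTGGCGC are E2F matches that lie after the annotated start, at positions 20 and 39 counted from 1 at the start, with 3 CCAAT boxes before it. In Mcm5, 2 E2F matches overlap in the run TTTCGCGCCAAA. The Top2a window holds 6 CCAAT boxes and 2 CHR matches, and the Prc1 and Kif23 windows hold 1 of each. The Birc5 window holds no match to any of these letters, the Fen1 window only a CHR match, and the Uhrf1 window only CCAAT boxes, a pair of which share bases in CCAATTGG. The second Uhrf1 window holds 1 E2F match.

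Of the 49 genes, 12 rose in CFLARs Tg intestine and 0 fell (limma, adjusted p under 0.05). Among all 13956 fitted genes 8.44% rose and 10.9% fell. The replication genes gave 10 of the 12, namely Mcm3, Mcm5, Mcm10, Cdc6, Gins1, Rrm2, Fen1, Uhrf1, Ccne1 and Ccne2, with log2 differences of 0.41 to 0.69. The mitosis genes gave Top2a and Birc5, with differences of 0.48 and 0.37. Means were higher in CFLARs Tg for 48 of 49 genes, against 47.6% of fitted genes, and E2f1 was the exception.

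The differences were small and similar in the 2 groups. The median log2 difference was 0.32 over 27 replication genes, a 1.25-fold level, and 0.28 over 22 mitosis genes, a 1.21-fold level, against -0.01 over all fitted genes. Both CFLARs Tg arrays lay above both wild-type arrays for 25 of 27 replication genes and 18 of 22 mitosis genes, against 32.0% of fitted genes. Both lay below for 1 gene, E2f1, against 37.6% of fitted genes. Before adjustment, 19 of 27 replication genes and 9 of 22 mitosis genes had a limma p under 0.05, all higher in CFLARs Tg. The share of fitted genes with such a p, in either direction, was 39.1%, and the mitosis share lay near it. The 39.1% was not split by direction, so it is not a like measure for genes that were all higher. Whether the groups differ in their number of calls was not tested. Leaving out the XX array (wild-type replicate 1) or the XY array (replicate 2), 0 of the 49 genes passed (limma, unadjusted p under 0.05 for 12 and 11 genes), where 0.244% and 0.265% of fitted genes rose. Without CFLARs Tg replicate 1 (XCFX) 45 passed, without replicate 2 (XCFY) 20 passed, where 22.3% and 14.1% of fitted genes rose. When tested for a change beyond 0.5 on the log2 scale, 0 genes among the 49 passed (limma's treat, unadjusted p under 0.05 for 0), where 0.380% of fitted genes rose. With sex type as a block 17 of the 49 rose, where 10.1% of fitted genes did.

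**Figure D2:**
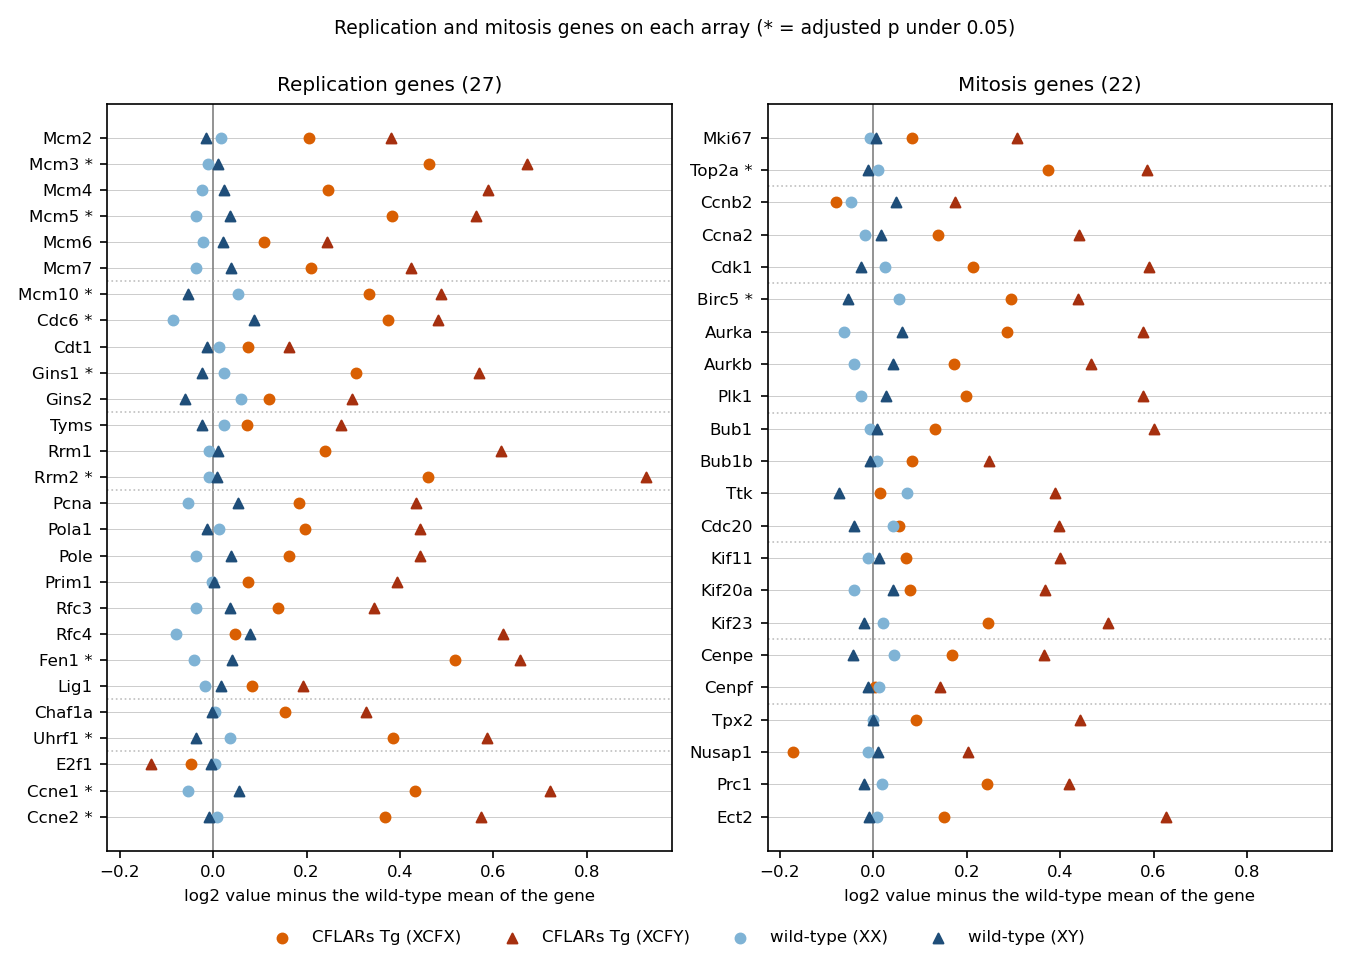
Each row is a gene and each point an array, as the deposited log2 value minus the mean of the 2 wild-type arrays; dotted lines part the roles and asterisks mark adjusted p under 0.05. The XCFY array is the highest for 48 of 49 genes, and the wild-type arrays lie close to each other.

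The MCM helicase ring, which unwinds DNA ahead of the polymerases, was higher in all 6 subunits, and 2 of them rose. Mcm3 read 9.59 and 9.80 in CFLARs Tg (XCFX and XCFY), against 9.11 and 9.14 in wild-type (XX and XY). Both CFLARs Tg arrays lay well above both wild-type arrays, a difference of 0.57 (SE 0.09, limma adjusted p = 0.025) or 1.48-fold. Mcm5 read 10.25 and 10.43 in CFLARs Tg, against 9.83 and 9.90 in wild-type (difference 0.47, SE 0.08, limma adjusted p = 0.0302). Mcm4 read 10.01 and 10.35 in CFLARs Tg, against 9.74 and 9.79 in wild-type, and did not pass (limma adjusted p = 0.0806). The other 3 subunits, Mcm7, Mcm2 and Mcm6, differed by 0.32, 0.29 and 0.18 (limma adjusted p from 0.0649 to 0.141), so that the subunits of one ring ranged from 1.13-fold to 1.48-fold.

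Of the 5 genes that load or fire the helicase, 3 rose. Cdc6, which loads the MCM ring onto origins, read 8.33 and 8.44 in CFLARs Tg, against 7.87 and 8.05 in wild-type (difference 0.43, SE 0.09, limma adjusted p = 0.0367). It was the 1 gene of the 49 whose CFLARs Tg arrays differed less, by 0.11, than their wild-type arrays, by 0.17. Mcm10, which helps activate the helicase, read 9.26 and 9.41 in CFLARs Tg, against 8.98 and 8.87 in wild-type (difference 0.41, SE 0.08, limma adjusted p = 0.0367). Gins1, a subunit of the GINS complex that travels with the helicase, read 7.99 and 8.25 in CFLARs Tg, against 7.71 and 7.66 in wild-type. Its call (difference 0.44, limma adjusted p = 0.0498) was lost without a filter, after quantile normalization and with the median of probe sets. Gins2, of the same complex, and Cdt1, the partner of Cdc6 in loading, differed by 0.21 and 0.12 and did not pass.

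Among the enzymes of deoxynucleotide synthesis, Rrm2 had the largest difference of all 49 genes. This gene of the small subunit of ribonucleotide reductase read 10.45 and 10.92 in CFLARs Tg, against 9.98 and 10.00 in wild-type. The difference of 0.69 (SE 0.16, limma adjusted p = 0.0496) is 1.62-fold, it was 0.46 without XCFY and 0.93 without XCFX, and its call was lost without a filter and after quantile normalization. Rrm1, which encodes the large subunit, read 11.14 and 11.51 in CFLARs Tg, against 10.89 and 10.91 in wild-type (difference 0.43, SE 0.13, limma adjusted p = 0.0884). Tyms, which encodes thymidylate synthase, differed by 0.17 (limma adjusted p = 0.21).

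Of the 8 genes of polymerases, clamp, clamp loader, flap nuclease and ligase, 1 rose. Fen1, which removes the flaps of Okazaki fragments, read 8.76 and 8.90 in CFLARs Tg, against 8.20 and 8.28 in wild-type, and had the lowest adjusted p of the 49 genes (difference 0.59, SE 0.08, limma adjusted p = 0.0200). Lig1, the ligase that seals these fragments, differed by 0.14 (limma adjusted p = 0.195). The clamp gene Pcna read 11.93 and 12.18 in CFLARs Tg, against 11.69 and 11.80 in wild-type (difference 0.31, limma adjusted p = 0.1). A second Pcna probe set gave 0.31 as well, and near-identical gene copies could share its signal. Pola1, Pole and Prim1, of the polymerases and primase, differed by 0.32, 0.30 and 0.23, and the clamp loader genes Rfc4 and Rfc3 by 0.33 and 0.24. Rfc4 was the replication gene whose groups overlapped: it read 10.50 and 11.07 in CFLARs Tg, against 10.37 and 10.53 in wild-type.

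Chromatin and cell cycle entry genes gave 3 rises. Uhrf1, which brings the maintenance DNA methyltransferase to new DNA, read 9.78 and 9.98 in CFLARs Tg, against 9.43 and 9.36 in wild-type (difference 0.49, SE 0.09, limma adjusted p = 0.0313). Chaf1a, the large subunit of the CAF-1 histone chaperone, differed by 0.24 and did not pass (limma adjusted p = 0.0933). Ccne1 and Ccne2 encode cyclin E, the partner of CDK2 at the start of S phase. Ccne1 read 9.76 and 10.05 in CFLARs Tg, against 9.27 and 9.38 in wild-type (difference 0.58, SE 0.11, limma adjusted p = 0.0363). Ccne2 read 9.09 and 9.30 in CFLARs Tg, against 8.73 and 8.72 in wild-type (difference 0.47, SE 0.09, limma adjusted p = 0.0318). E2f1, the transcription factor known for activating this gene set, read 9.41 and 9.33 in CFLARs Tg, against 9.47 and 9.46 in wild-type. Both CFLARs Tg arrays lay below the wild-type arrays, by a mean of -0.09 that did not pass (SE 0.06, limma adjusted p = 0.333).

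**Figure D3:**
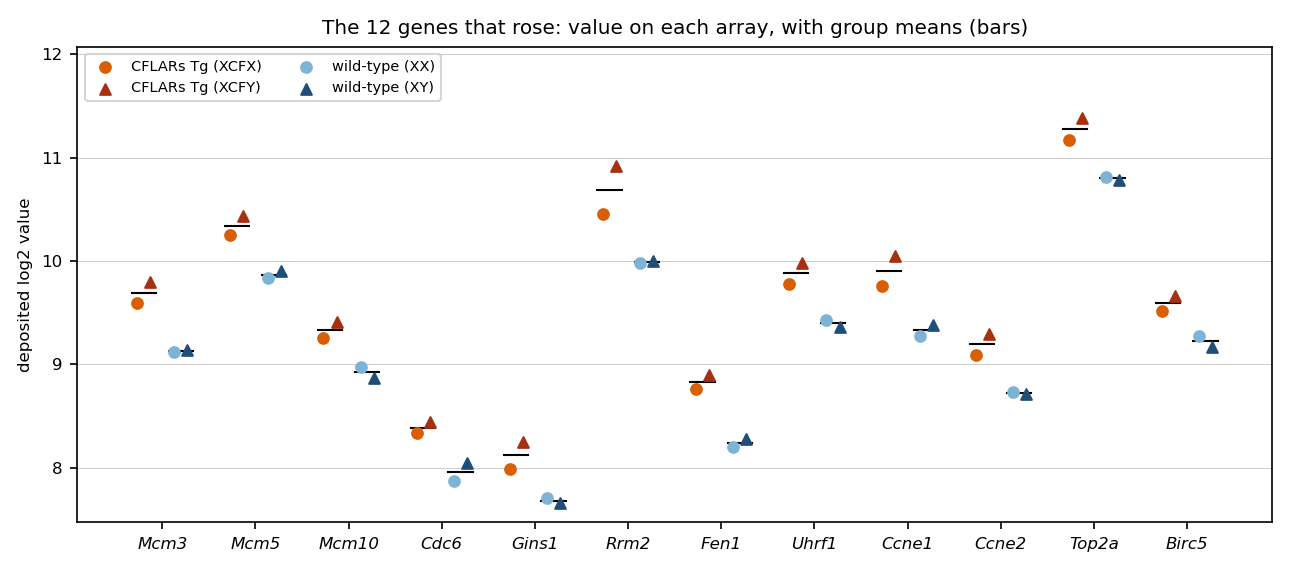
Deposited log2 values of the 12 genes that rose, with the CFLARs Tg arrays left of the wild-type arrays and a bar at each group mean (n = 2 arrays each). No gene shows an overlap of the groups, and the gap runs from 0.37 for Birc5 to 0.69 for Rrm2 between the means.

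In mitosis 2 of 22 genes rose, Top2a and Birc5, a share near the 8.44% of all fitted genes that rose. Top2a, which encodes the topoisomerase that untangles sister chromatids, read 11.17 and 11.38 in CFLARs Tg, against 10.81 and 10.79 in wild-type (difference 0.48, SE 0.09, limma adjusted p = 0.0317). Its second probe set read only 6.06 to 6.48 on the 4 arrays, with a mean difference of -0.00092, and the call was lost with the median of both. Birc5, which encodes survivin, the subunit that targets the chromosomal passenger complex, read 9.52 and 9.66 in CFLARs Tg, against 9.28 and 9.17 in wild-type. Its difference of 0.37 (SE 0.08, limma adjusted p = 0.0432) lost its call without a filter. Mki67, the proliferation marker that coats mitotic chromosomes, read 11.70 and 11.92 in CFLARs Tg, against 11.61 and 11.62 in wild-type, a 1.14-fold level that did not pass (limma adjusted p = 0.19).

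The mitotic kinases and cyclins were higher without passing. Aurka, the spindle pole kinase, had the largest difference among the mitosis genes that did not pass: it read 10.06 and 10.35 in CFLARs Tg, against 9.72 and 9.84 in wild-type (difference 0.43, SE 0.12, limma adjusted p = 0.0659). Cdk1, the kinase that starts mitosis, read 11.75 and 12.13 in CFLARs Tg, against 11.56 and 11.51 in wild-type (difference 0.40, limma adjusted p = 0.102). Ect2, which starts the cleavage furrow, read 10.44 and 10.91 in CFLARs Tg, against 10.29 and 10.27 in wild-type (difference 0.39, limma adjusted p = 0.157). In Cdk1 and Ect2 the XCFX array lay nearer to the wild-type mean than to XCFY, and in Aurka it lay about midway, 0.29 below XCFY. Plk1 and Aurkb, the Polo-like and Aurora B kinases, differed by 0.39 and 0.32 (limma adjusted p = 0.11 and 0.112). Ccna2, the cyclin of S phase and early mitosis, differed by 0.29, and Ccnb2, a B-type cyclin, read 11.51 and 11.76 in CFLARs Tg, against 11.54 and 11.63 in wild-type, with groups that overlapped (difference 0.05, SE 0.10).

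Spindle, checkpoint and kinetochore genes covered the lower end. Of the 4 spindle checkpoint genes and APC/C activators, Bub1 differed by 0.37, Cdc20 by 0.23, Ttk by 0.20 and Bub1b by 0.16 (limma adjusted p from 0.172 to 0.354). The kinesins Kif23, Kif11 and Kif20a, which move or bundle spindle microtubules, differed by 0.37, 0.23 and 0.22. Prc1, which bundles microtubules at the midzone, came closest to the threshold: it read 9.94 and 10.12 in CFLARs Tg, against 9.72 and 9.68 in wild-type (difference 0.33, SE 0.08, limma adjusted p = 0.0524), and passed after quantile normalization and median centring. The kinetochore genes Cenpe and Cenpf differed by 0.27 and 0.07 and the spindle assembly factor Tpx2 by 0.27. Nusap1, a spindle microtubule protein, had the smallest difference of the 49 genes, 0.02 (SE 0.13), with 10.24 and 10.62 in CFLARs Tg on either side of 10.41 and 10.43 in wild-type.

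The size of the difference followed the array pair. The XCFY array was the highest of the 4 for 48 of 49 genes, against 33.8% of all fitted genes. The CFLARs Tg arrays differed by more than 0.1 in 47 genes, whereas the wild-type arrays did so in 9. The CFLARs Tg gap was wider than the wild-type gap in 48 of 49 genes, against 70.6% of all fitted genes. In the XY-type pair (XCFY minus XY) the median difference was 0.40 for replication genes and 0.44 for mitosis genes, and in the XX-type pair (XCFX minus XX) it was 0.24 and 0.13. The XY-type pair had the larger difference in 25 of 27 replication genes and in all 22 mitosis genes, against 7472 of all 13956 fitted genes. The pairs have 1 array on each side, so this contrast has no test. The labels give neither the chromosome that carries the transgene nor its dose in each sex type, so sex type, transgene dose and the single arrays cannot be told apart in it. Sex-linked genes fitted the titles: Xist read 12.90 in XCFX and 6.62 in XCFY, against 12.92 in XX and 6.78 in XY. The wild-type arrays of opposite sex type had median differences (XX minus XY) of -0.02 for replication genes and 0.01 for mitosis genes.

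**Figure D4:**
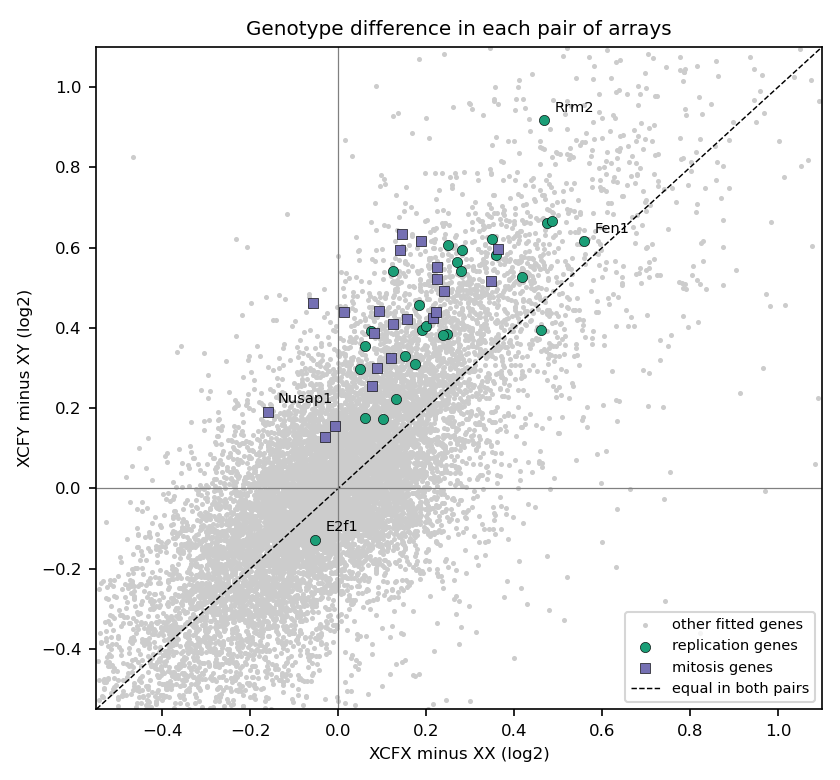
Each point is a gene, with XCFX minus XX (log2) on the horizontal axis and XCFY minus XY on the vertical axis, with other fitted genes within the plotted range in grey. Replication and mitosis genes lie mostly above the line of equal differences, and 4 mitosis genes and E2f1 lie left of 0 in the XX-type pair.

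Most other genes of the pathway were higher as well. In 12 further lists of replication and mitosis genes, 198 fitted genes outside the 50 had a median difference of 0.24, with 28 that rose and 5 that fell (limma), and 172 with a higher mean. Among all fitted genes 8.44% rose, 10.9% fell and 47.6% had a higher mean. Leaving out the XX or the XY array, 0 of the 198 passed (limma, unadjusted p under 0.05 for 34 and 39), where 42 and 40 of all 13956 fitted genes did. Of 11 genes of origin firing 5 rose and 0 fell, and of 9 fitted genes of origin recognition 1 rose, Orc2 (by 0.51). Dbf4, the activator of the Cdc7 kinase that fires origins, read 9.60 and 10.00 in CFLARs Tg, against 9.14 and 9.13 in wild-type (difference 0.66, limma adjusted p = 0.0419), and Donson, Cdc45, Cdc7 and Gins3 rose by 0.37, 0.31, 0.30 and 0.29. The calls of Orc2 and Cdc45 were lost without a filter (limma adjusted p = 0.0546 and 0.0575). Of 21 other polymerase, clamp loader and RPA subunits 0 rose and 1 fell, the small polymerase delta subunit Pold4 (by 0.40), and their median was 0.16.

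Nucleotide synthesis genes were higher too. Of 14 other fitted genes 5 rose and 0 fell, with a median of 0.34. Ctps, which makes cytidine triphosphate, read 9.40 and 9.69 in CFLARs Tg, against 8.62 and 8.64 in wild-type, a 1.88-fold level (difference 0.91, SE 0.11, limma adjusted p = 0.0193). Cad and Umps, which encode enzymes of the first and last steps of uridine monophosphate synthesis, rose by 0.61 and 0.46, and the nucleoside diphosphate kinase gene Nme1 and the dUTPase gene Dut by 0.61 and 0.37. Of 8 chromatin assembly genes 1 rose, the helicase gene Hells, which read 9.40 and 9.65 in CFLARs Tg, against 8.76 and 8.66 in wild-type (difference 0.82, SE 0.10, limma adjusted p = 0.02). Of 22 fitted checkpoint and recombination genes 3 rose, Exo1, Fanca and Rad54l, by 0.57, 0.43 and 0.36.

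Regulators of S phase entry went both ways. Of 24 genes 7 rose and 3 fell, with a median of 0.20. Myb and Myc, transcription factors of dividing progenitors, rose by 0.68 each, Tfdp1, the dimer partner of E2F factors, by 0.48, and Ccnd1, E2f2, E2f3 and E2f4 passed as well. E2f8, which encodes a repressor of E2F target genes, read 9.84 and 9.93 in CFLARs Tg, against 10.66 and 10.64 in wild-type (difference -0.76, SE 0.06, limma adjusted p = 0.0133). Rbl2, the pocket protein p130, and Tfdp2 fell by 0.43 and 0.44. Of 7 fitted CDK inhibitor genes 0 passed (limma, unadjusted p under 0.05 for 1): Cdkn1c read 11.80 and 11.33 in CFLARs Tg, against 12.35 and 12.16 in wild-type (difference -0.69, limma adjusted p = 0.0572), and Cdkn1a had no probe set of its own. Of 15 fitted p53 target genes 1 rose, the Polo-like kinase gene Plk3 (by 1.35), and Trp53inp1, Sesn2 and Sesn1 fell by 0.88, 0.60 and 0.53.

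In the 5 other lists of mitosis genes 6 of 89 fitted genes rose, 6.74%, near the 8.44% of all fitted genes. Of 19 G2/M kinase and APC/C genes 1 rose, Ube2s, by 0.30, of 19 kinesin, spindle and cytokinesis genes 2 rose, Kif4 and Tacc3, by 0.48 and 0.41, and of 26 kinetochore and checkpoint genes 2 rose, Nsl1 and Cenpt, by 0.32 and 0.27. Of the 7 genes of the MuvB complex and its partners, Mybl2, the B-Myb gene that acts with MuvB on mitosis genes, rose by 0.51 and Lin37, a MuvB subunit, fell by 0.25. The calls of Kif4 and Lin37 were lost without a filter (limma adjusted p = 0.0541 and 0.0561). Of 18 cohesin and condensin genes 0 passed (limma, unadjusted p under 0.05 for 4), and Smc2 and Ncapg differed by 0.44 and 0.42. The medians of these lists lay between 0.12 and 0.25. Of 13 stem cell markers Cd44 and Axin2 rose by 0.85 and 0.30 and Lgr5 and Olfm4 fell by 0.44 and 0.43, with a median of -0.06. With no genes left out Lgr5 did not pass (limma adjusted p = 0.0536).

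**Figure D5:**
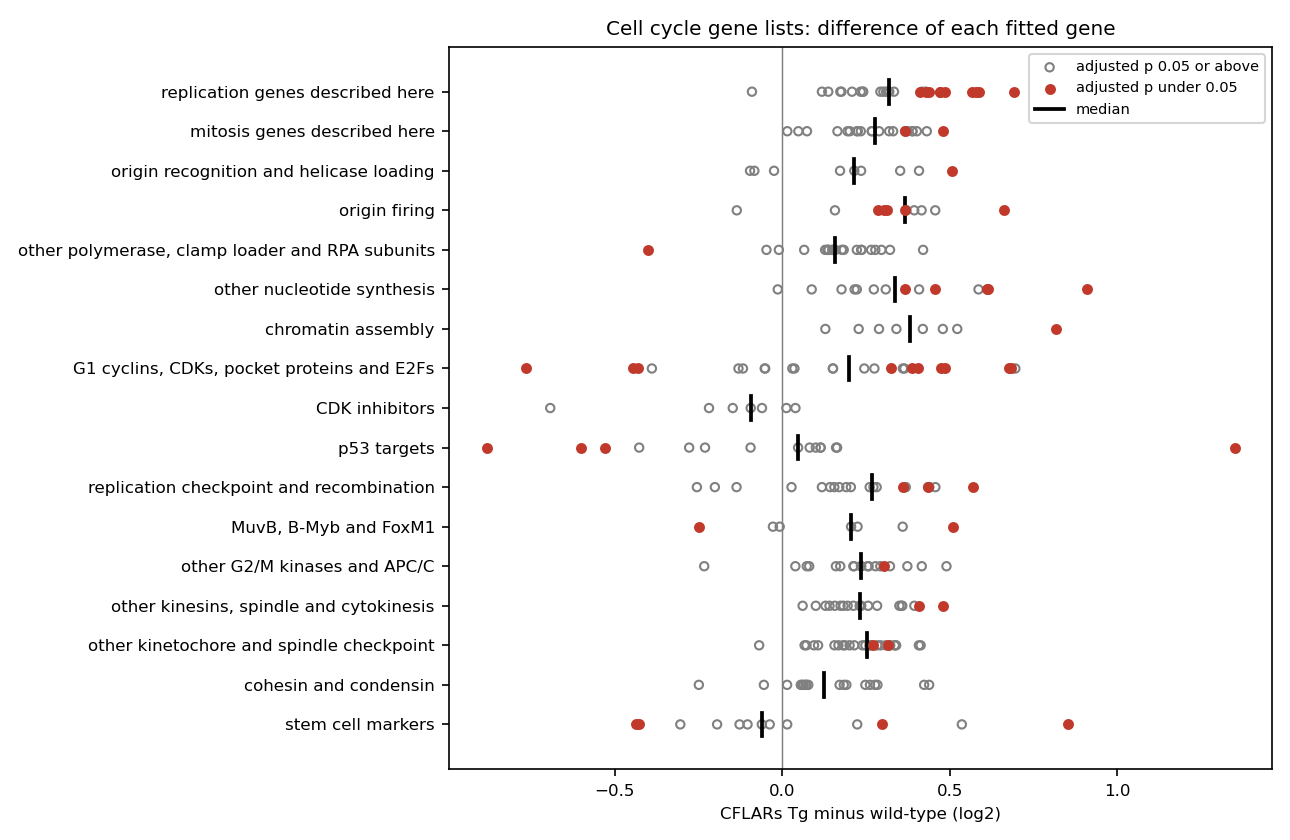
Each point is a fitted gene, placed by its difference (CFLARs Tg minus wild-type, log2), with one list a row, filled points for adjusted p under 0.05 and a bar at the median. The replication and mitosis genes have medians of 0.32 and 0.28, and the CDK inhibitors and stem cell markers have medians of -0.09 and -0.06.

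Among markers of other cells, most neutrophil genes had a higher mean in CFLARs Tg. Epithelial markers were present on all arrays, with mean levels over 10 genes of 12.40 and 11.88 in CFLARs Tg (XCFX and XCFY), against 12.42 and 12.42 in wild-type. Of the 10, 2 had a higher mean in CFLARs Tg, against 47.6% of all fitted genes. On both CFLARs Tg arrays 6 lay below wild-type, against 37.6% of all fitted genes. Krt20, a marker of differentiated villus cells, rose by 1.35, while the lactase gene Lct differed by -1.49 and the fatty acid binding protein genes Fabp1 and Fabp2 by -0.81 and -0.72 without passing (limma adjusted p from 0.103 to 0.141). Neutrophil markers averaged 8.20 and 8.97 in CFLARs Tg, against 7.20 and 7.34 in wild-type. Of the 10 on the array, 9 had a higher mean in CFLARs Tg, against 9962 of all 19938 genes. The fit called 6 of the 7 that passed the filter, against 8.44% of all fitted genes that rose, but this count is no support. S100a9, S100a8, Cxcr2 and Ly6g had wild-type means of 7.25, 6.74, 6.71 and 6.93, under the cut of 7.48, and passed it only through CFLARs Tg. Monocyte and macrophage markers averaged 8.86 and 9.47 in CFLARs Tg, against 8.56 and 8.58 in wild-type, with 0 of 7 fitted genes called (limma, unadjusted p under 0.05 for 4). Mpo, Elane and Camp, granule genes of neutrophil precursors, lay under the filter, between 6.99 and 7.55 on all arrays, and were not tested. Mpo read 7.31 and 7.55 in CFLARs Tg, against 6.99 and 7.28 in wild-type. Its difference was 0.29 with no overlap, a lack of overlap also found in 32.0% of fitted genes. The lowest difference of the neutrophil markers, -0.03, was that of Elane or Camp. Markers of T and innate lymphoid cells averaged 7.64 and 7.62 in CFLARs Tg, against 7.73 and 7.67 in wild-type, those of B cells 7.07 and 7.03 in CFLARs Tg, against 6.94 and 7.02 in wild-type, and those of erythroid precursors 8.42 and 8.41 in CFLARs Tg, against 8.29 and 8.49 in wild-type. Of the genes of these 3 lists on the array, 2 of 6, 1 of 4 and 4 of 5 were fitted, and the others lay under the filter. Among the fitted genes 0 passed (limma, unadjusted p under 0.05 for 0). Liver markers averaged 10.42 and 8.71 in CFLARs Tg, against 10.73 and 11.34 in wild-type, and pancreas markers 8.57 and 7.93 in CFLARs Tg, against 8.78 and 10.39 in wild-type, where the XY array stood apart. Smooth muscle and fibroblast markers averaged 12.19 and 12.33 in CFLARs Tg, against 12.19 and 12.20 in wild-type, and endothelial markers 10.20 and 10.32 in CFLARs Tg, against 10.45 and 10.38 in wild-type. The part of these cells in the differences of replication and mitosis genes was not tested.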

How the data were processed

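The table deposited by the authors holds log2 expression values for 28856 probe sets on 4 arrays; its summarisation, background correction and normalization are not given in the sources used here, and the scale was read from the values (4.33 to 14.55, array medians 8.31 to 8.33). Values were used as deposited. Platform annotation gave 1 symbol for 21789 probe sets, several for 1621 and none for 5446, and only the first were named. Each of 19938 genes was represented by its probe set of highest mean value. The lowest 30% of genes by mean (under 7.48) were left out. The other 13956 were fitted with limma 3.58.1 in R 4.3.3 (lmFit, eBayes, no covariates, CFLARs Tg minus wild-type, 2 arrays each, 2 residual degrees of freedom), with Benjamini-Hochberg adjustment over all of them at 0.05. Alternatives were other filters on low values, quantile normalization, median centring, the median of probe sets, limma-trend, sex type as a block, a minimum difference of 0.5 (treat) and leaving out each array. The script was tested on simulated data. The number of arrays limits the precision.

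The members, the gene lists and the tests were chosen with earlier results of these data known. Named list genes are up to 4 per list with the largest difference among those past the threshold, or 2 where none passed, with per-array values for every member past the threshold and for the 3 others per phase with the largest difference. Those of Pcna, E2f1, Mki67, Ccnb2, Prc1 and Nusap1 were added after their values were seen. Gins3, Dut, E2f2, E2f3, E2f4, Ccnd1, Rbl2, Tfdp2 and the marker genes Lct, Fabp1, Fabp2, Mpo, Elane and Camp were named after their values were seen. The sex types of the titles do not pair the arrays: the deviations of same-type arrays from their group means correlated at 0.014 over autosomal genes.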

Additional observations from a re-analysis of the deposited data

Results flagged for a closer look

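In 4 mitosis genes the 2 array pairs moved in opposite directions, with CFLARs Tg above wild-type in the XY-type pair and below it in the XX-type pair. The difference was 0.46 in the XY-type pair and -0.06 in the XX-type pair for Ttk, 0.19 and -0.16 for Nusap1, 0.16 and -0.01 for Cenpf, and 0.13 and -0.03 for Ccnb2. The same held for 1 lymphocyte marker, Thy1, with 0.21 in the XY-type pair and -0.09 in the XX-type pair. The erythroid markers Alas2 and Slc4a1 went the other way, with -0.02 and -0.53 in the XY-type pair and 0.37 and 0.30 in the XX-type pair. Each pair is 1 array against 1, so the difference between the pairs was not tested.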

How the results depend on the processing

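Each fitted gene of the 49 (45 with the lowest 50% of genes left out) kept its direction under other filters, normalizations, probe set rules, variance models and the sex-type block; leaving out 1 array at a time, Ccnb2 ran from -0.079 to 0.18 and Nusap1 from -0.17 to 0.20, negative without CFLARs Tg replicate 2. Among the named list genes, Thy1 then ran from -0.048 to 0.17, negative without wild-type replicate 2, and Slc4a1 from -0.41 to 0.18, positive without wild-type replicate 2 and, at 0.0058, without CFLARs Tg replicate 2. With sex type as a block (a replicate block), 14 replication and 3 mitosis genes rose, adding Mcm4, Mcm7, Rrm1, Pcna and Aurka to all 12 calls, and 46 genes of the other lists rose in place of 28, while the calls of Gins3, Cenpt, Lin37 and Axin2 were lost (limma adjusted p from 0.0506 to 0.0709). With no filter 1 mitosis gene rose, and with the median of probe sets 1. Against a minimum difference of 0.5, 53 of all genes rose and 10 fell, and 0 replication, mitosis or other listed genes passed (limma's treat, unadjusted p under 0.05 for 0 of the 49 and 3 of the others). Leaving out 1 array at a time, genes called higher numbered 34 to 3112 and lower 3 to 3447 over all genes, 0 to 25 for replication, 0 to 20 for mitosis, and 0 to 145 higher and 0 to 14 lower in the other lists. The median difference then ran from 0.21 to 0.44 for replication genes and from 0.14 to 0.43 for mitosis genes. Without a wild-type array the within-group spread comes from the CFLARs Tg arrays alone, and without a CFLARs Tg array from the wild-type arrays alone. The median SD over the 49 genes was 0.175 in CFLARs Tg and 0.034 in wild-type. Each fit without 1 array had 1 residual degree of freedom, so its number of calls is no support. Same-numbered arrays share a sex type, and their deviations from the group means did not correlate (0.014), so the block is not taken as a pairing.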
